A study of Mus musculus with 4 samples.

Results

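The genes described here are 10 regulators and effectors of the integrated stress response, *Atf3*, *Atf4*, *Ddit3*, *Trib3*, *Chac1*, *Sesn2*, *Ppp1r15a*, *Ddit4*, *Nupr1* and *Vldlr*. They were named for their place in this response, with earlier results of these arrays known, and make up 10 of the 20144 genes with a named probe on the arrays. RNA came from J774.1 cells, a mouse monocyte-macrophage line grown in medium with 10% serum and antibiotics. Cells were kept for 4 hours with MG132, epoxomicin or ONX0914, each at 1 μM, or with DMSO, the solvent of the inhibitors, and every condition was measured on 1 single-color array. MG132 and epoxomicin inhibit the proteasome, and ONX0914 is described as an inhibitor of its β5 and β5i subunits. The treatment label of one array reads ONX-0912, whereas its protocol and the Methods name ONX0914, and the array is called ONX0914 here. There was 1 array per condition and no replicate culture, so no difference between conditions could be tested and no P value is given. All 3 inhibitor arrays were set against the same DMSO array.

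In the integrated stress response, kinases that sense different stresses phosphorylate the α subunit of the initiation factor eIF2. Phosphorylated eIF2 holds back its own exchange factor, eIF2B, and translation falls for most mRNAs while that of *Atf4* goes up. ATF4, a bZIP transcription factor, then drives genes for amino acid supply and redox balance, other transcription factors such as ATF3 and CHOP (the product of *Ddit3*), and genes that end the response. Proteasome inhibitors are among the agents known to engage this response. The arrays measured RNA only, and neither eIF2 phosphorylation nor any protein was measured.

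ATF4 and its partners of the C/EBP family bind a composite element, and the promoters of the regulators were searched for its core because the detected ones were all higher with the inhibitors. The core was searched as TGATGNAA and the cAMP response element, which ATF and CREB factors bind, as TGACGTCA, on both strands. Each window ran from 250 bases before to 50 bases after a RefSeq start site in GRCm38.p6. The core was found in 5 of the 10 genes, and 3.97% of 32851 mouse windows held it. Among the 10171 genes with a window that were measured on all arrays, 3.05% held it. The 10 genes were named for their place in a response that ATF4 drives. Their share was therefore not independent of that choice, and is given as a description. In *Atf3* and *Nupr1* it began 110 bases before the start site, in *Chac1* 193 bases before it, in a second window of *Vldlr* 200 bases before it and in *Trib3* 14 bases after it. The cAMP response element was found in 1 of the 10 genes, *Ppp1r15a*, where it began 12 bases before the start, and 1.79% of all windows and 3.50% of the measured genes with a window held it. Neither string was present in the windows of *Atf4*, *Ddit3*, *Sesn2* and *Ddit4* or in the first window of *Vldlr*. The windows with a match are printed 5′ to 3′ on the strand of the gene, with the matched bases in capitals. The core reads TTGCATCA or TTACATCA there because each match lay on the opposite strand. The windows are chr1:191183284-191183583 (minus strand) for *Atf3*, chr2:119350992-119351291 (plus) for *Chac1*, chr2:152344011-152344310 (minus) for *Trib3*, chr7:126625421-126625720 (minus) for *Nupr1*, chr19:27216770-27217069 (plus) for *Vldlr* and chr7:45526219-45526518 (minus) for *Ppp1r15a*.
*Atf3*: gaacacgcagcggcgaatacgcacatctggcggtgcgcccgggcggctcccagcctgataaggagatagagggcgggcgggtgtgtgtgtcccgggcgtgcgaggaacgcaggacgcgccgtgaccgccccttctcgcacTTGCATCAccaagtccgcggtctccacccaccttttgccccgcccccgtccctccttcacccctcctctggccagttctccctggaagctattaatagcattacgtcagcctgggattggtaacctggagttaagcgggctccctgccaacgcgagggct
*Nupr1*: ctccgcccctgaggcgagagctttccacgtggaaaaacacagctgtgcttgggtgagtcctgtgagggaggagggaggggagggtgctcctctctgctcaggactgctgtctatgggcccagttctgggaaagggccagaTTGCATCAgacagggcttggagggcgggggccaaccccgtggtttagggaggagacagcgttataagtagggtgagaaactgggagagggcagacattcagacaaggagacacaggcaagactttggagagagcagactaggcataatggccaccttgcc
*Chac1*: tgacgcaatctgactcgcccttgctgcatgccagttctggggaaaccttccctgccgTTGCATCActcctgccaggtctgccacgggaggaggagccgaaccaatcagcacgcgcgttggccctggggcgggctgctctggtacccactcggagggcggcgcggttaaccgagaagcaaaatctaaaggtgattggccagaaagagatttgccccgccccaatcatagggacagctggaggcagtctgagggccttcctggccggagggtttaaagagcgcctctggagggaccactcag
*Trib3*: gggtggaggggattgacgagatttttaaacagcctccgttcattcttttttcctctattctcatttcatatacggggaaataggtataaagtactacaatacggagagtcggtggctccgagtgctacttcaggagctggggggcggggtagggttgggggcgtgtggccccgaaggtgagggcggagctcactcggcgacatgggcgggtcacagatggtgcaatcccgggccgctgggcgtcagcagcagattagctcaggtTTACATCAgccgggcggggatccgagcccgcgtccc
*Vldlr*: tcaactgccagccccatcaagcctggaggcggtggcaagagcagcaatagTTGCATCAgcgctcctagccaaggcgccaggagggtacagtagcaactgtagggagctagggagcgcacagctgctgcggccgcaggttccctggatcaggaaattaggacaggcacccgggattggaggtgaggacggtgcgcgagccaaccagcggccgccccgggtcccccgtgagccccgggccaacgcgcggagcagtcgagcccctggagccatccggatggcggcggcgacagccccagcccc
*Ppp1r15a*: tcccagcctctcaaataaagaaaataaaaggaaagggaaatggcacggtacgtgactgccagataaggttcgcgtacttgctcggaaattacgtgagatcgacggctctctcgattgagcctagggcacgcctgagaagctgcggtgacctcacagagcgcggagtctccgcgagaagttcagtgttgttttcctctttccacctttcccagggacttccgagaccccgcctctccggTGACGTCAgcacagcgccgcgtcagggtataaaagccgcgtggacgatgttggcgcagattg
A match describes letters in a window and is not evidence that a factor bound there. *Vldlr* carried the core but was not detected on any array, and *Ddit3*, *Sesn2* and *Ddit4*, which carried neither string, were all more than 5-fold higher with each inhibitor.

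Each array held 44397 spots, of which 43020 were not controls, and 60.3% to 63.1% of the latter were well above background by the call of the scanning software. The 75th percentile of the processed signal, used to scale the arrays, lay between 1453 and 1683. No spot was saturated. Probes printed 10 times showed a median SD of at most 0.0613 on the log2 scale within an array. All 7 macrophage markers with a probe were well above background on every array, and of these only *Lyz2* with epoxomicin passed 2-fold (−1.01 on the log2 scale). None of 4 B cell markers was detected, whereas *Cd3e* and *Cd4* of 4 T cell markers and *Col1a2* of 4 fibroblast markers were detected on all arrays and *Pdgfra* with DMSO only. Of 4 epithelial markers, *Epcam* and *Cdh1* were not detected on any array, while *Krt8* was detected on the MG132 and epoxomicin arrays and *Krt18* on the epoxomicin array only. The *Krt8* signal was 4.16 (DMSO), 37.8 (MG132), 121 (epoxomicin) and 5.29 (ONX0914). All RNA came from a single cell line. The source of these marker transcripts and their part in the results were not tested.

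At 4 hours, 9 of the 10 regulators were detected, and each of them was at least 2-fold higher than with DMSO wherever it could be compared. With MG132 all 9 compared were higher, with a median difference of 3.19 on the log2 scale (9.11-fold), whereas 7.13% of the 13991 genes compared passed the threshold upward and 3.6% downward. With epoxomicin all 9 were higher, with a median of 3.05 (8.26-fold), against 8.31% of all genes upward and 4.44% downward. With ONX0914 all 8 compared were higher, with a median of 2.46 (5.50-fold), against 3.23% upward and 1.39% downward. All 8 regulators with a value on every array were higher with all 3 inhibitors, and so were 1.98% of 13743 genes compared. Over all genes, the median differences were −0.01 (MG132), −0.04 (epoxomicin) and −0.0038 (ONX0914) on the log2 scale. None of the regulators compared was at least 2-fold lower. The error that the software assigns to a spot gave an error of 0.20 on the log2 scale for a difference between arrays in each detected regulator, and it covers the measurement of a spot but not the spread between cultures.

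**Figure D1:**
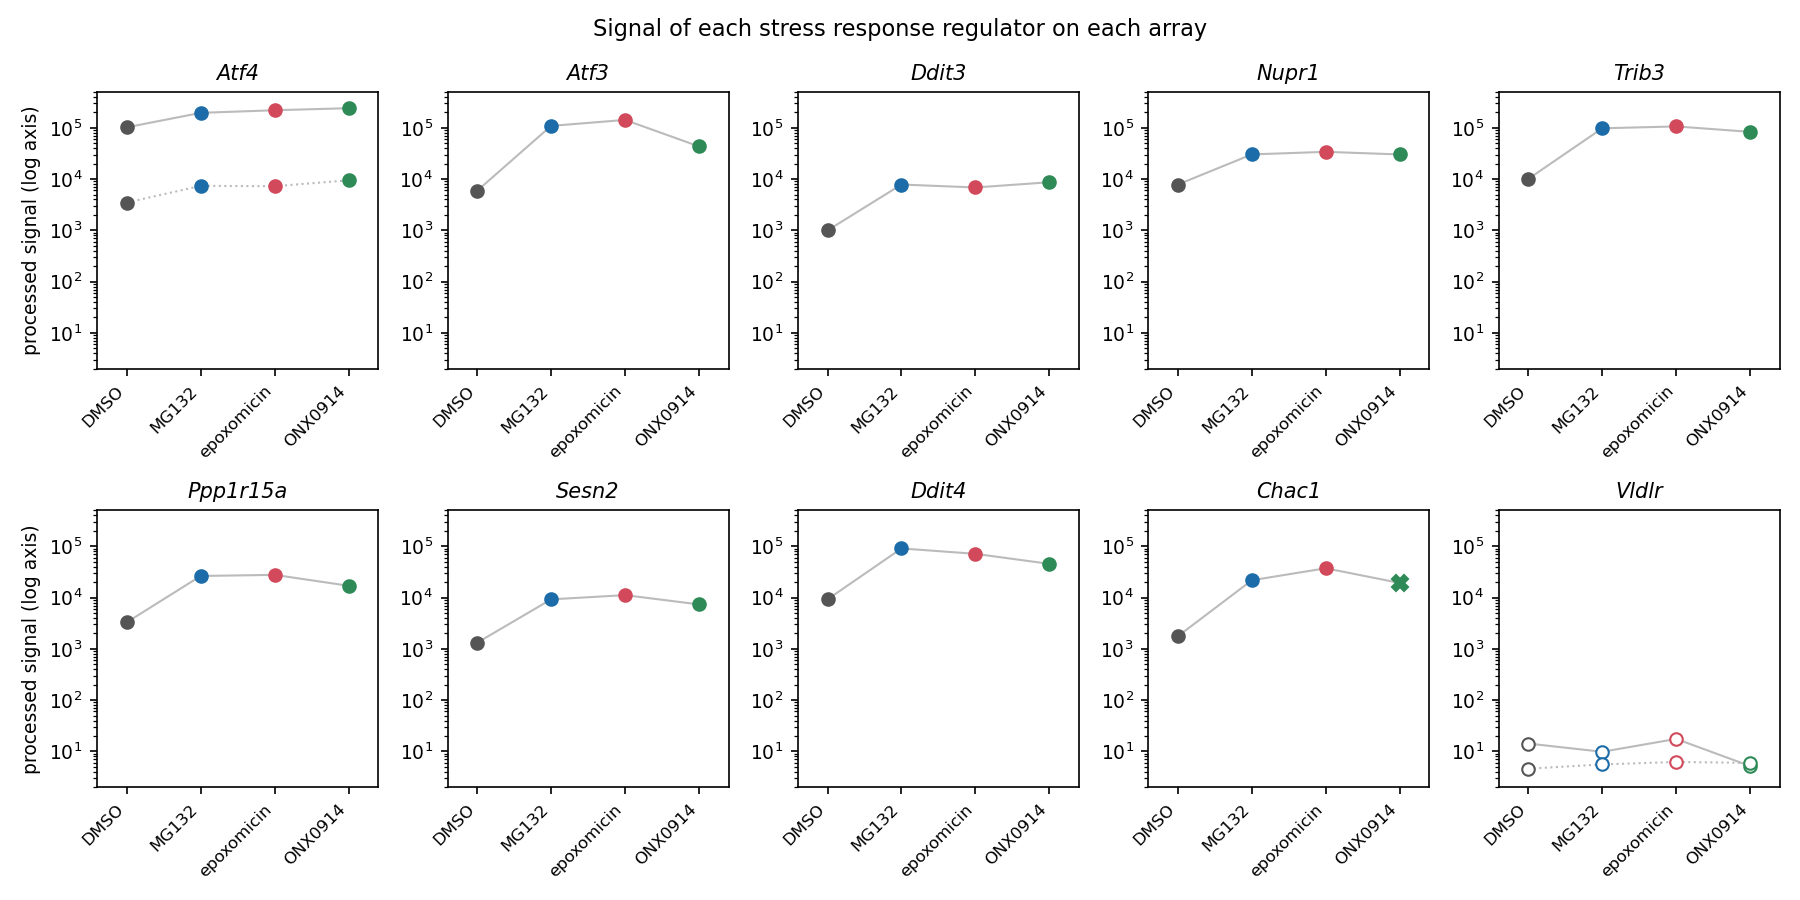
Processed signal (brightness after background subtraction, log axis) of each regulator on the DMSO, MG132, epoxomicin and ONX0914 arrays, 1 point per array. Dotted lines join the second probe of *Atf4* and *Vldlr*, open points were not well above background, and the cross marks the *Chac1* spot that the software called an outlier. The 9 detected regulators lie above their DMSO point on every inhibitor array, and both *Vldlr* probes lie at 17.5 or less.

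*Atf4*, the factor through which the response acts, had the smallest increase of the detected regulators. Its brighter probe had a processed signal of 102412 (DMSO), 195971 (MG132), 220379 (epoxomicin) and 241575 (ONX0914). After scaling, these values were 1.12, 1.08 and 1.27 higher than DMSO on the log2 scale, or 2.18-, 2.12- and 2.42-fold. The 2-fold threshold lay within the software error of the MG132 and epoxomicin values, and without scaling between arrays the MG132 value was 0.94, under the threshold. A second *Atf4* probe read 3487 (DMSO), 7375 (MG132), 7272 (epoxomicin) and 9476 (ONX0914), which was 2.41-, 2.05- and 2.79-fold higher. Both probes were highest with ONX0914. Among genes measured on both arrays, *Atf4* ranked 655th of 13006 by increase with MG132, 829th of 13041 with epoxomicin and 188th of 12993 with ONX0914.

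*Atf3*, a bZIP repressor and activator that ATF4 induces, had the largest increase of the regulators with MG132 and epoxomicin. Its signal was 5919 (DMSO), 109096 (MG132), 142720 (epoxomicin) and 43357 (ONX0914). It was 21.0-fold higher with MG132 (log2 4.39), 23.7-fold with epoxomicin (4.57) and 7.51-fold with ONX0914 (2.91). The ONX0914 value was thus well short of the others. Among genes measured on both arrays it was the 16th largest increase with MG132, the 23rd with epoxomicin and the 30th with ONX0914.

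*Ddit3* encodes CHOP, the C/EBP family member linked to cell death under prolonged stress. Its signal was 998 (DMSO), 7835 (MG132), 6864 (epoxomicin) and 8684 (ONX0914). The increase was 8.94-fold with MG132 (log2 3.16), 6.76-fold with epoxomicin (2.76) and 8.93-fold with ONX0914 (3.16). *Ddit3* had the largest difference with ONX0914 of the regulators counted, though the *Chac1* spot left out as an outlier read higher (3.49). It ranked 19th by increase with ONX0914 among genes measured on both arrays, compared with 61st for MG132 and 129th for epoxomicin.

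*Nupr1*, a small chromatin-associated stress protein, increased to nearly the same extent with each inhibitor. Its signal was 7843 (DMSO), 30317 (MG132), 34007 (epoxomicin) and 30247 (ONX0914). The increases were 4.40-, 4.26- and 3.96-fold (log2 2.14, 2.09 and 1.98), and the 3 inhibitors lay within 0.15 of each other on the log2 scale.

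The next pair of genes encode proteins that act back on the response. *Trib3* encodes a pseudokinase that binds ATF4 and CHOP and limits their activity. Its signal was 10086 (DMSO), 97925 (MG132), 106499 (epoxomicin) and 83443 (ONX0914), and the increase was 11.1-fold (log2 3.47), 10.4-fold (3.38) and 8.49-fold (3.09). *Ppp1r15a* encodes GADD34, the stress-induced subunit that directs protein phosphatase 1 to eIF2. It had a signal of 3300 (DMSO), 26428 (MG132), 27741 (epoxomicin) and 17003 (ONX0914), which was 9.11-, 8.26- and 5.29-fold higher than DMSO (log2 3.19, 3.05 and 2.40). Both genes were clearly higher on all inhibitor arrays, and both were lowest with ONX0914 among the inhibitors.

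*Sesn2* and *Ddit4* encode sestrin 2 and REDD1, which restrain the growth kinase complex mTORC1. *Sesn2* had a signal of 1317 (DMSO), 9239 (MG132), 11167 (epoxomicin) and 7360 (ONX0914), an increase of 7.98-, 8.33- and 5.73-fold (log2 3.00, 3.06 and 2.52). *Ddit4* had a signal of 9238 (DMSO), 90998 (MG132), 71349 (epoxomicin) and 45491 (ONX0914), an increase of 11.2-, 7.59- and 5.05-fold (log2 3.49, 2.92 and 2.34). The order of the inhibitors differed between these genes. MG132 and epoxomicin gave like values for *Sesn2*, while *Ddit4* was highest with MG132, then epoxomicin, and lowest with ONX0914.

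*Chac1* encodes an enzyme that breaks down glutathione and is induced by way of ATF4, ATF3 and CHOP. Its signal was 1766 with DMSO, 21800 with MG132 and 37345 with epoxomicin, which was 14.1-fold (log2 3.81) and 20.8-fold (4.38) higher. On the ONX0914 array its single spot was well above background with a signal of 19262, but the software called the spot a nonuniform outlier, and the value was left out of the counts. With the spot kept, *Chac1* was 11.2-fold higher with ONX0914 (log2 3.49).

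*Vldlr*, a lipoprotein receptor that has been described as an ATF4 target, was the exception. One of its probes read 14.2 (DMSO), 9.82 (MG132), 17.5 (epoxomicin) and 5.17 (ONX0914), and the other read 4.59, 5.57, 6.22 and 5.95. Neither was well above background on any array, so no difference was computed. The lowest signals called well above background lay between 14.7 and 20.3, and a change of *Vldlr* under this level was not detectable.

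**Figure D2:**
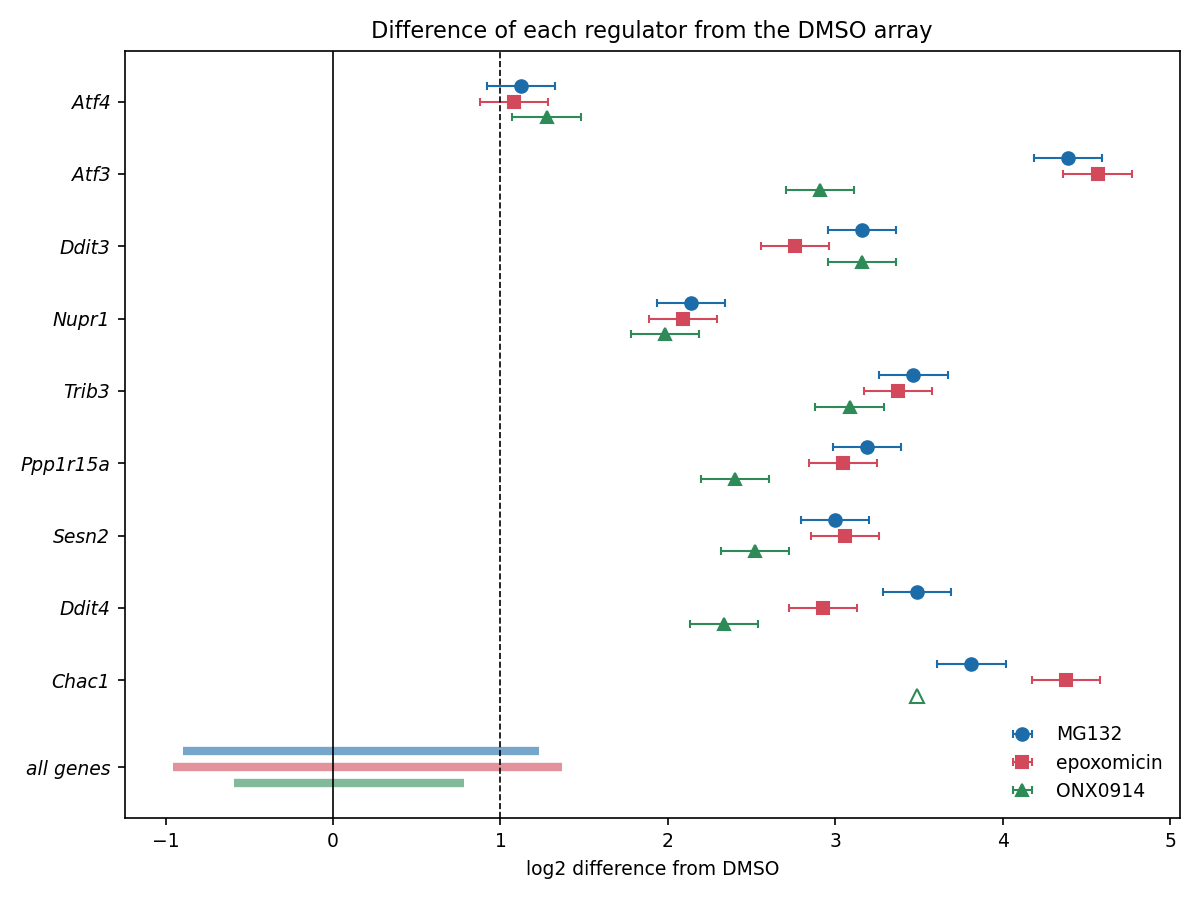
Log2 difference of each detected regulator from the DMSO array for MG132, epoxomicin and ONX0914, with bars for the software error of 0.20. The dashed line marks 2-fold, the open triangle is the *Chac1* spot called an outlier, and the bars at the bottom span the 5th to 95th percentile of all genes, which reached 1.23, 1.37 and 0.78. *Atf4* lies at 1.08 to 1.27, and every other regulator at 1.98 or above.

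The inhibitors were compared with each other in pairs, which gave 3 pairs at the same dose and time and no test. ONX0914 was lower than MG132 by more than 2 times the software error (0.41 on the log2 scale) for *Atf3* (−1.48), *Ddit4* (−1.15), *Ppp1r15a* (−0.79) and *Sesn2* (−0.48). It differed by less than that for *Trib3* (−0.38), *Nupr1* (−0.15), *Ddit3* (−0.0015) and *Atf4* (0.15). The values formed a continuous series from *Atf3* to *Atf4*, and this error does not cover the spread between cultures. Against epoxomicin, ONX0914 was lower for *Atf3* (−1.66), *Ppp1r15a* (−0.64), *Ddit4* (−0.59) and *Sesn2* (−0.54), and lay within the same bound for *Trib3* (−0.29), *Nupr1* (−0.11), *Atf4* (0.19) and *Ddit3* (0.40). The second *Atf4* probe was 0.21 higher with ONX0914 than with MG132 and 0.44 higher than with epoxomicin. With its outlier spot kept, *Chac1* was lower with ONX0914 by −0.32 against MG132 and −0.90 against epoxomicin.

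The same difference was computed for 747 other genes that were at least 2-fold higher with both MG132 and epoxomicin. Their median was −0.76 for ONX0914 minus MG132, with the 10th and 90th percentiles at −1.54 and −0.35, and 16 of them (2.14%) were at 0 or above. This set was chosen for its high MG132 and epoxomicin values, which pulls its differences below 0 in advance, and is given as a description. Over all 12728 genes measured on all arrays, the median was 0.03, and 52.9% were at 0 or above. Of the 747 genes, 51.7% were at least as high as *Ppp1r15a*, 79.5% as high as *Ddit4* and 88.6% as high as *Atf3*. For ONX0914 minus epoxomicin these shares were 27.6%, 23.4% and 85.0%. *Atf4*, *Ddit3* and *Nupr1* lay at the upper end of the 747. Of these, 0.937%, 2.14% and 4.02% were at least as high against MG132 and 1.07%, 0.803% and 3.88% against epoxomicin. The set was not matched to the regulators by size of rise. *Atf4*, at 1.12 with MG132 and 1.08 with epoxomicin, lay near the 2-fold threshold that defined the set. Among all genes measured on both arrays, *Atf4*, *Ddit3* and *Nupr1* ranked 4478th, 6824th and 8991st of 12856 against MG132. Against epoxomicin they ranked 4429th, 1976th and 8412th of 12860. For most regulators, epoxomicin and MG132 lay closer together than ONX0914 and MG132 did. The exceptions were *Ddit3*, the second *Atf4* probe and, with its outlier spot kept, *Chac1*. Epoxomicin was higher by 0.57 for *Chac1* and by 0.18 for *Atf3*, and lower for *Ddit4* (−0.56) and *Ddit3* (−0.40), while the other 5 regulators differed by no more than 0.14, apart from the second *Atf4* probe at −0.23.

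**Figure D3:**
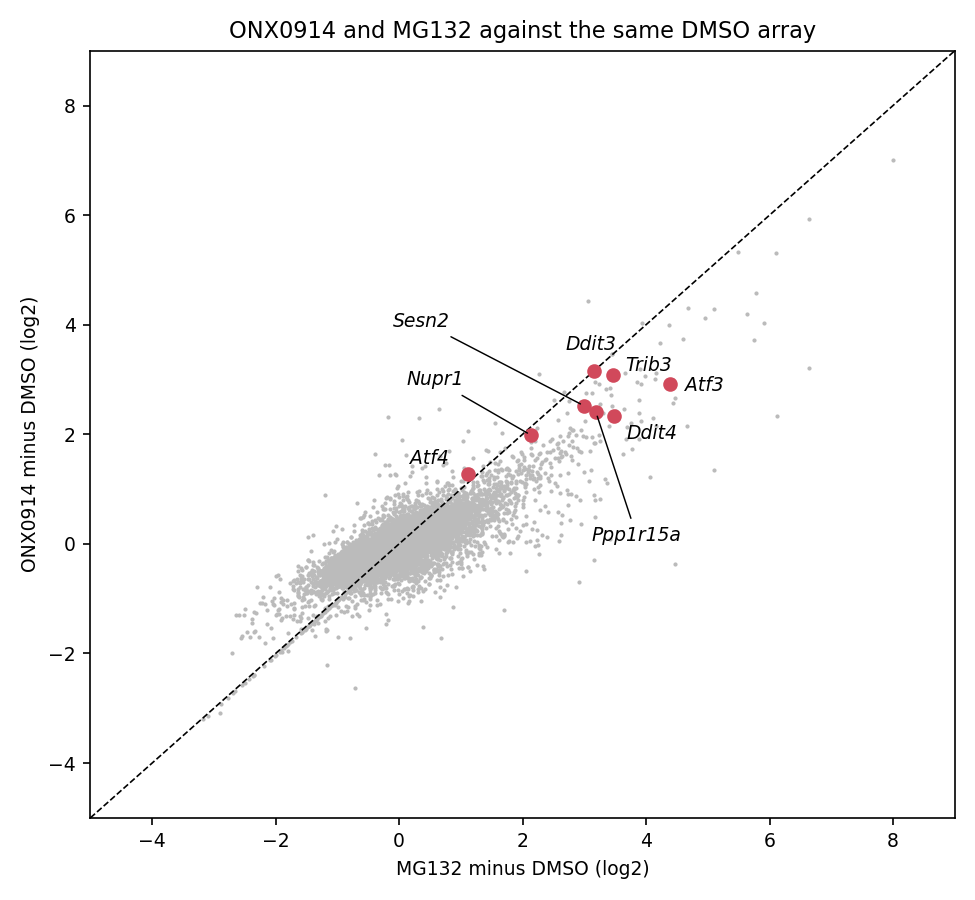
Log2 difference from DMSO with ONX0914 against that with MG132, for 8 regulators (red) and every other gene compared in both (grey). Both axes share the DMSO array, and the dashed diagonal marks equal differences. *Atf4* and *Ddit3* lie on the diagonal or just above it, and *Atf3* and *Ddit4* lie farthest below it among the regulators, by 1.48 and 1.15.

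Other genes of the pathway were divided by role. The 4 eIF2 kinases had median differences of −0.17 (MG132), −0.01 (epoxomicin) and −0.05 (ONX0914), and none was at least 2-fold higher with MG132 or ONX0914. *Eif2ak2*, which encodes the double-stranded RNA sensor PKR, was the exception with epoxomicin, at 1.23, with 0.86 for MG132 and 0.67 for ONX0914. *Eif2ak4*, which encodes the amino acid sensor GCN2, had the lowest value with MG132, at −0.38. None of 8 subunits of eIF2 and eIF2B passed 2-fold in either direction, and their medians were 0.27, 0.27 and 0.18. The largest was *Eif2s2*, the β subunit of eIF2, at 0.96, 0.86 and 0.53.

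Of 9 partners of these kinases and of the eIF2 phosphatase, *Impact* alone passed 2-fold, and it did so with all 3 inhibitors, as did 1.98% of all genes. IMPACT competes for the GCN2 activator GCN1. Its signal was 1943 (DMSO), 3902 (MG132), 4041 (epoxomicin) and 5593 (ONX0914), which was 2.29-, 2.04- and 2.95-fold higher. As for *Atf4*, the highest value was that of ONX0914. The epoxomicin value of *Impact* was 1.03 on the log2 scale and ranged from 0.81 to 1.06 over the alternatives.

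Among 9 other bZIP genes, 4 were at least 2-fold higher with MG132, 3 with epoxomicin and none with ONX0914, beside 7.13%, 8.31% and 3.23% of all genes. The MG132 count was 2 when arrays were centered on the median or not scaled. Those with MG132 were *Cebpa* (1.41), *Cebpg* (1.22), *Cebpb* (1.04) and *Cebpd* (1.02), and those with epoxomicin were *Cebpd* (1.68), *Cebpa* (1.50) and *Cebpg* (1.28). C/EBPγ and C/EBPβ are partners of ATF4 at the composite element. *Cebpa* was faint, with signals of 17.5 to 50.4. With MG132 and epoxomicin it lay below DMSO under normexp background correction, but not with normexp fitted without outlier spots.

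A share of the other targets of ATF4 and CHOP were also higher. Of the 24, 26 and 26 targets compared with MG132, epoxomicin and ONX0914, 16, 17 and 12 were at least 2-fold higher, beside 7.13%, 8.31% and 3.23% of all genes, and none was at least 2-fold lower. The medians were 1.26, 1.24 and 0.95, and 11 targets were higher with all 3 inhibitors. The largest differences with MG132 were those of *Gdf15*, a secreted stress cytokine (5.91, 5.64 and 4.03), of *Slc7a11*, the cystine transporter subunit (5.63, 5.45 and 4.19), and of *Slc6a9*, a glycine transporter (3.51, 3.39 and 2.42). *Slc7a11* was faint with DMSO, at a signal of 27.7, and had 2.45, 2.23 and 1.09 under normexp background correction. With normexp fitted without outlier spots it had 3.85, 3.62 and 2.48. *Vegfa*, named after its values were seen, was not well above background with DMSO or MG132. It was at least 7.13-fold higher with ONX0914, but was below DMSO under normexp (−0.62). The 12 targets counted with ONX0914 include *Vegfa* and also *Pck2*, which had 1.06 with ONX0914 but −0.049 under normexp. Neither gene turned sign with ONX0914 when normexp was fitted without outlier spots. The smallest differences with MG132 were those of *Psph* (−0.48, −0.58 and −0.12) and *Phgdh* (0.14, 0.72 and 0.03), which like *Psat1* (0.87, 0.82 and 0.55) encode enzymes of serine synthesis, and of the death receptor gene *Tnfrsf10b* (0.36, 0.36 and −0.39). The list was put together with earlier results of these arrays known and is not independent evidence.

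Genes of the IRE1 and ATF6 branches of the unfolded protein response, which also answer to stress in the endoplasmic reticulum, were read as well. Of 13 genes, 2 (MG132), 2 (epoxomicin) and 1 (ONX0914) were at least 2-fold higher, beside 7.13%, 8.31% and 3.23% of all genes, with medians of −0.07, −0.22 and 0.23. The ubiquitin-domain protein gene *Herpud1* was higher with all inhibitors (2.21, 2.26 and 1.87), and *Dnajb9*, which encodes a chaperone of the reticulum, had 1.30, 1.75 and 0.33. The chaperone gene *Calr* had −0.61, −0.64 and 0.09. Among the 10 reference genes reported here, *Gusb* was lower with MG132 and epoxomicin (−1.48 and −1.36), while the medians were −0.11, −0.14 and −0.03.

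**Figure D4:**
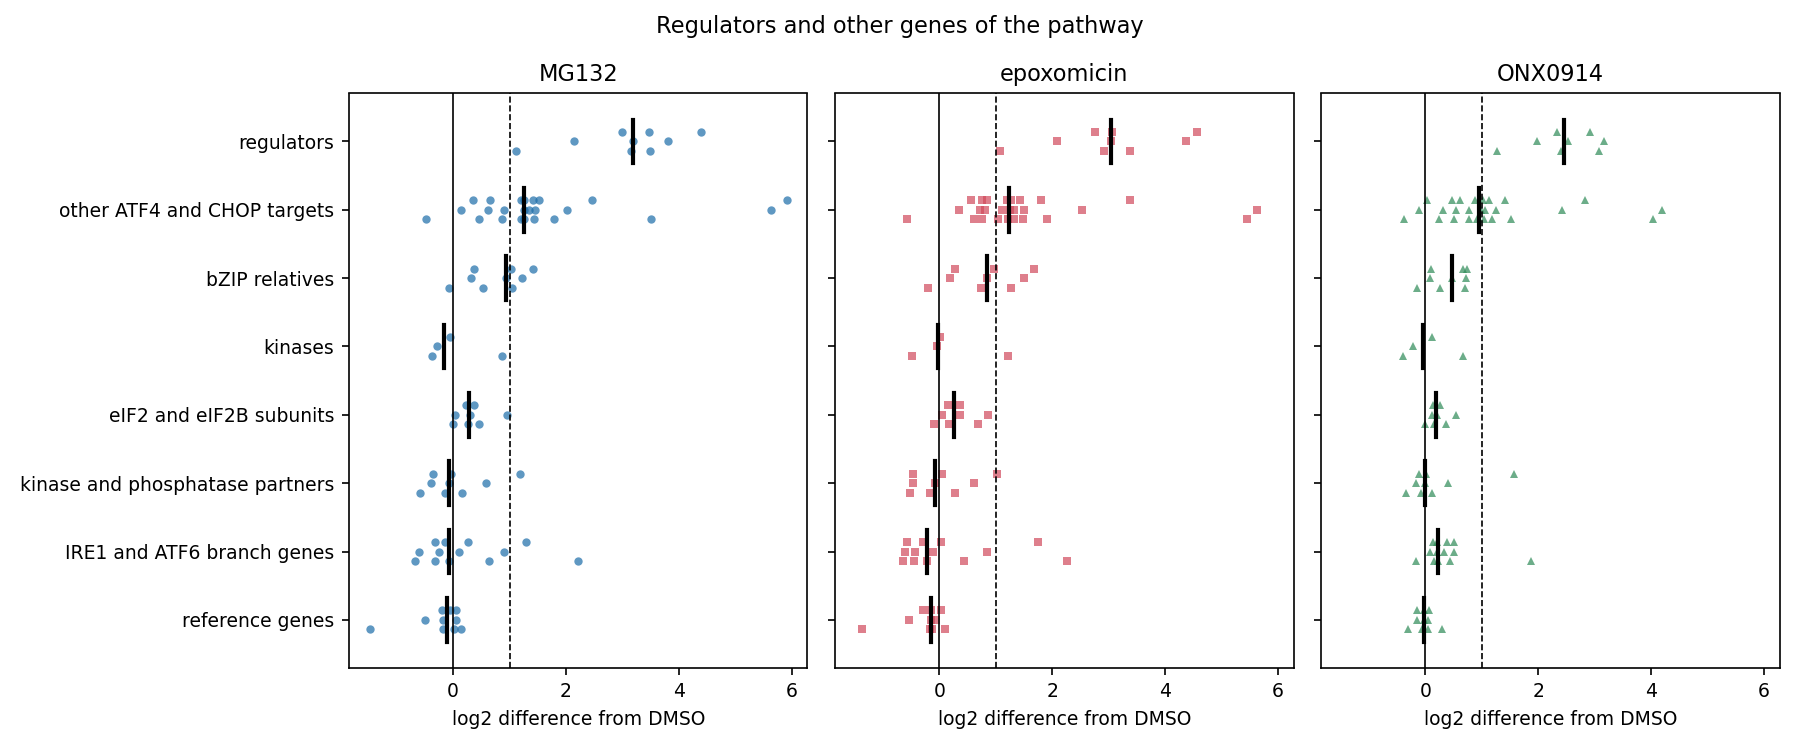
Log2 difference from DMSO for each compared gene of the regulators and of 7 other lists, 1 panel per inhibitor, with black bars at the medians and a dashed line at 2-fold. The regulators have medians of 3.19, 3.05 and 2.46, and the other ATF4 and CHOP targets have medians between 0.95 and 1.26. The medians of the kinases, the eIF2 and eIF2B subunits and the reference genes lie between −0.17 and 0.27.

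Relatives of the regulators were read on the same arrays. Of all genes, 7.13%, 8.31% and 3.23% passed 2-fold upward with MG132, epoxomicin and ONX0914, and 3.6%, 4.44% and 1.39% downward. *Sesn1*, another sestrin gene, had a signal of 3427 (DMSO), 809 (MG132), 964 (epoxomicin) and 1301 (ONX0914). It fell by 1.90, 1.86 and 1.36 on the log2 scale, while *Sesn2* rose. *Sesn3* had −0.35, −0.28 and −0.20. *Trib1* was higher with MG132 and epoxomicin (1.21 and 1.47) and had 0.81 with ONX0914, below *Trib3* in each case, and *Trib2* was not well above background. *Ppp1r15b*, which encodes the constitutive counterpart of GADD34, had 0.58, 0.61 and 0.40, and *Chac2* had 0.33, 0.52 and 0.13.

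Within the bZIP and *Nupr1* families, *Atf5* had 0.93, 0.98 and 0.47, *Jdp2* had 0.38, 0.20 and 0.73, and *Nupr1l* had −0.74, −0.74 and −0.51, none of which passed 2-fold. *Lrp8*, which encodes a receptor related to that of *Vldlr*, had 0.06, 0.02 and 0.53 and was well above background, unlike *Vldlr*. *Ddit4l* was not well above background on the arrays.

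**Figure D5:**
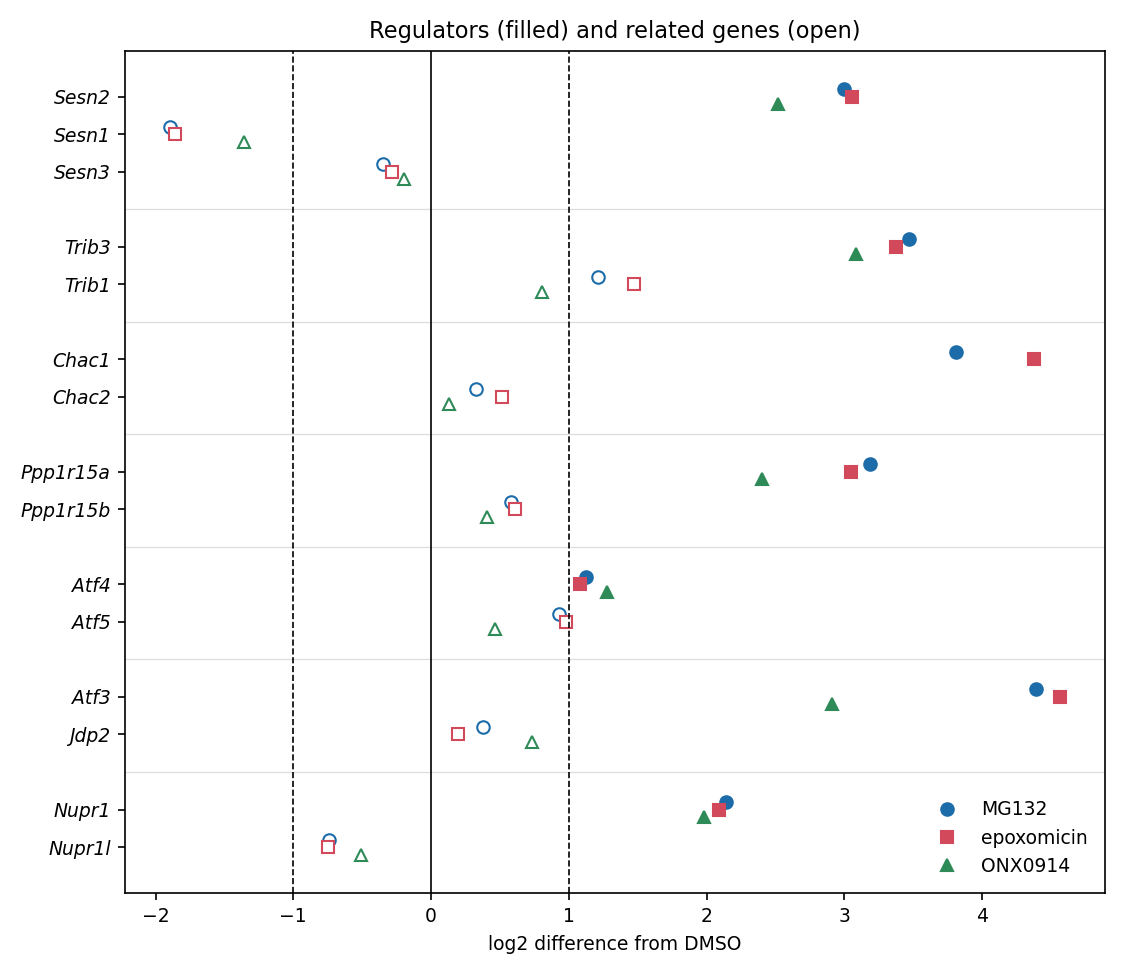
Log2 difference from DMSO of 7 regulators (filled) and their detected relatives (open) with MG132, epoxomicin and ONX0914, with dashed lines at 2-fold in either direction. *Sesn1* lies at −1.90 to −1.36 and *Sesn2* at 2.52 to 3.06, and of the relatives *Trib1* alone passes 2-fold upward. *Chac1* has no ONX0914 point because its spot was called an outlier.

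The genes whose 3 differences lay nearest to the median profile of the regulators (3.19, 3.05 and 2.46) were sought among 12728 genes measured on all arrays. They were *Gm12298*, at a distance of 0.295 on the log2 scale, the guanylate-binding protein genes *Gbp4* (0.361) and *Gbp6* (0.429), *Slamf7* (0.470) and *Slc6a9* (0.471). *Slc6a9* was on the list of ATF4 and CHOP targets. *Gbp4* was higher by 3.02, 3.18 and 2.75 and *Gbp6* by 3.01, 3.37 and 2.25 with MG132, epoxomicin and ONX0914. The distance rests on 3 values that share the DMSO array.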

How the data were processed

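The authors deposited the scanner output of 1 Agilent single-color (Cy3) array per condition, made with Feature Extraction 10.7.1.1, which holds the intensity of each spot after background subtraction within the array, the error the software assigns to it, and calls for outliers and for signal well above background. A deposited GeneSpring table of log2 values, centered per probe on the median of the arrays, served as an alternative. The Methods name a human design, whereas the headers of the deposited files describe a mouse design.

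Control spots and spots marked as outliers were left out, the 75th percentile of the array was subtracted from the log2 intensity, and spots of a probe were averaged. Probes were named through their transcript accession in the RefSeq table of GRCm38.p6, which named 26581 of 39429 probes (67.4%). All 10 regulators had a probe, 8 of them a single one, and 9 were well above background. A gene was represented by its brightest probe and compared when well above background on at least 1 of both arrays. A signal not well above background was replaced by a bound. A difference of 2-fold counted as higher or lower. Of the reference genes and relatives, 1 each is not reported here and was left out of the medians. The regulators, the lists of other genes and the relatives were chosen with earlier results of these data known. Genes named are the regulators, their relatives, examples from the lists, not always those at both ends, and the 5 nearest to the median profile. The genes in the closing part of the text are named because a value there called for it.

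The alternatives were normexp background correction (offset 50, on median spot brightness), quantile normalization, centering on the median, the percentile over detected probes, no scaling, the authors' table, the mean over probes, no bounds, outlier spots kept, a 4-fold threshold, and genes detected on all arrays. Normexp fitted without outlier spots was added after the data were seen. Calculations were tested on simulated data and were run in R 4.3.3 (limma 3.58.1) and Python 3.11.15 (pandas 2.3.3, numpy 2.4.6, matplotlib 3.10.9).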

Additional observations from a re-analysis of the deposited data

Results flagged for a closer look

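No regulator moved in opposite directions with different inhibitors. Of the other pathway genes, 4 did so by more than the software error of each difference. Smaller opposite moves, such as that of *Calr* (−0.61, −0.64 and 0.09), were not counted. The differences between inhibitors were not tested. *Tnfrsf10b* had 0.36 with MG132 and with epoxomicin and −0.39 with ONX0914, so that ONX0914 minus MG132 was −0.74 and ONX0914 minus epoxomicin −0.74 on the log2 scale. It was faint, with signals of 78.0 (DMSO), 87.8 (MG132), 102 (epoxomicin) and 58.2 (ONX0914). For *Pdia4*, ONX0914 (0.44) minus epoxomicin (−0.22) was 0.66. For *Sdf2l1*, ONX0914 (0.21) minus MG132 (−0.32) was 0.53 and ONX0914 minus epoxomicin (−0.61) was 0.82. For *Manf*, ONX0914 (0.23) minus MG132 (−0.32) was 0.55 and ONX0914 minus epoxomicin (−0.43) was 0.66. *Pdia4*, *Sdf2l1* and *Manf* encode proteins of the endoplasmic reticulum. The smaller values for *Sdf2l1* (0.21), *Pdia4* (−0.22) and *Manf* (0.23) lay close to the software error of 0.20 given for the regulators. None of these genes passed 2-fold with any inhibitor.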

How the results depend on the processing

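The differences of the regulators from DMSO gave 260 values under 10 alternatives. All were above 0, 215 moved by less than the spread between spots (0.0867 on the log2 scale), and 45 moved by more. Some of the 215 were fixed in advance. Omitting bounds could not move any value, because none rested on a bound, and the mean over probes could move only those of *Atf4*. One fell below 2-fold, *Atf4* with MG132 at 0.94 without scaling, where 8 regulators were higher with MG132 and 7 with all 3 inhibitors. With the authors' table or with outlier spots kept, 9 were higher with all 3, and at a 4-fold threshold 6. The median of the regulators with MG132 moved to 3.09 with a shift to the median and to 3.00 without scaling, and that with ONX0914 to 2.36 with normexp fitted without outlier spots. The cause was not tested. The counts over all genes moved with normexp, where 471, 569 and 192 genes were higher in place of 998, 1167 and 451 with MG132, epoxomicin and ONX0914, and the median of all genes shifted to −0.29, −0.32 and −0.18. Normexp without outlier spots gave 602, 696 and 214 genes, a 4-fold threshold 271, 336 and 114, and genes detected on all arrays 289 with ONX0914. Without scaling, the median of all genes with MG132 was −0.20, and with a shift to the median it was −0.11 with MG132 and −0.11 with epoxomicin. Among listed genes, some differences of at least 2-fold turned sign with normexp fitted on all spots, all in faint genes. They were *Cebpa* (−0.93 with MG132, −1.11 with epoxomicin), *Pck2* (−0.049 with ONX0914), *Fgf21* (−1.06 with epoxomicin), *Vegfa* (−0.62 with ONX0914), *Krt8* (−1.07 and −0.70 with MG132 and epoxomicin) and *Krt18* (−1.48 with epoxomicin). Smaller differences were not screened for a turn of sign. None of at least 2-fold turned sign with normexp fitted without outlier spots. With normexp, *Slc7a11* had 2.45, 2.23 and 1.09 in place of 5.63, 5.45 and 4.19, and 3.85, 3.62 and 2.48 when outlier spots were left out of the fit. Of the other bZIP genes, 2 in place of 4 were higher with MG132 when arrays were centered on the median or not scaled. No paired analysis was possible because each condition had 1 array.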
